A study of Caenorhabditis elegans with 60 samples.

Results

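The 10 genes described here, for maternal RNA-binding proteins of Caenorhabditis elegans oocytes, were followed across a concentration series of hexafluoropropylene oxide dimer acid (HFPO-DA), a fluorinated ether acid from fluoropolymer production. They are oma-1, oma-2, mex-1, mex-3, mex-5, mex-6, pos-1, pie-1, spn-4 and puf-5, and were picked by name as well-known regulators of maternal mRNA. Earlier results of these data were known when they were picked. All 10 are among the 10298 genes of the deposited table. Wild-type N2 (Bristol) worms, synchronised at the first larval stage (L1), were kept for 48 h in liquid medium with E. coli HB101 as food, in wells of about 1000 pooled worms. The groups were exposed to 12.5, 62.5 and 313 µg/L and to 1.56, 7.81, 15.6, 31.3, 62.5, 125, 250, 500, 1000, 2000 and 4000 mg/L HFPO-DA. The control worms, of the same strain and age, received the medium without it. Each of the 15 groups has 4 libraries of poly(A) RNA from whole bodies, 60 in all. The replicates are separate wells, and whether the wells drew on separate worm cultures is not stated. The p-values therefore cover only the spread between wells, which may be technical.

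These proteins control maternal mRNAs, which oocytes store and translate only later. OMA-1 and OMA-2 are paired CCCH zinc finger proteins that act redundantly in oocyte maturation, hold back translation of stored messages and are degraded in the early embryo. MEX-5 and MEX-6, also paired and of the CCCH type, place other factors in the anterior or posterior of the fertilised egg, and the CCCH proteins MEX-1, POS-1 and PIE-1 act in the posterior and germ line blastomeres. MEX-3 is a KH domain protein that represses translation of the pal-1 message, SPN-4 has an RNA recognition motif and acts in spindle orientation and translation in the early embryo, and PUF-5 is a Pumilio-family repressor of late oogenesis.

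The 10 genes lie on 5 chromosomes (build WBcel235, whole gene with its exons, introns and UTRs). The pair oma-1 (CELE_C09G9.6, chromosome IV, 8888976 to 8890999) and oma-2 (CELE_ZC513.6, V, 8029439 to 8031214) is split between chromosomes, as is the pair mex-5 (CELE_W02A2.7, IV, 13353723 to 13356104) and mex-6 (CELE_AH6.5, II, 9524174 to 9526359). Chromosome II also holds mex-1 (CELE_W03C9.7, 11968637 to 11972330) and puf-5 (CELE_F54C9.8, 8575541 to 8577787), and chromosome V holds pos-1 (CELE_F52E1.1, 8414086 to 8415254) and spn-4 (CELE_ZC404.8, 6783187 to 6784903). The gene mex-3 is on I (CELE_F53G12.5, 127285 to 134270) and pie-1 on III (CELE_Y49E10.14, 12426893 to 12429195). A gene on the opposite strand overlaps mex-1 by 18 bases (acbp-6), pie-1 by 24 bases (snr-6) and spn-4 by 8 bases (ZC404.15). How the counting treated strand, or reads that the 2 members of a pair could share, is not stated in the labels or the table.

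The deposited values are a normalised signal on a linear scale, from which whole read numbers could be recovered. Libraries held 462117 to 4522107 reads (median 1475652.5), with 737039 to 1249951 at 4000 mg/L and 999346 to 1914706 in the controls. The 4000 mg/L libraries were thus shallower (median 890603 reads, against 1472382 in the controls), and the part of depth in the results was not tested. The members were read 27 to 1437 times per library. Their coefficients of variation over 4 libraries were 14.1 to 29.0% at 4000 mg/L, where reads alone would give 8.34 to 14.7%, and 5.11 to 22.7% in the controls, where reads alone would give 5.53 to 10.1%. A single library stood apart, replicate 4 at 31.3 mg/L, described further below, in which the members were 0.60 to 1.48 lower on the log2(value + 1) scale than the mean of its 3 group mates. Results are given with and without it where it changes a call.

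At 4000 mg/L the message of 8 of the 10 genes fell against the controls, and none rose. Tests used limma on log2(value + 1), with Benjamini-Hochberg adjustment over all 10293 genes tested and a threshold of 0.05, and all 10 members were among the genes tested. Over all genes 13.7% were called lower in this comparison. The members were picked with earlier results of these data known, so this share is not an unbiased background. The members' log2 fold changes had a median of -0.58, ranging from -0.81 to -0.40, against a median of -0.05 over all genes. In whole worms, fewer oocytes and less RNA per oocyte cannot be told apart.

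**Figure D1:**
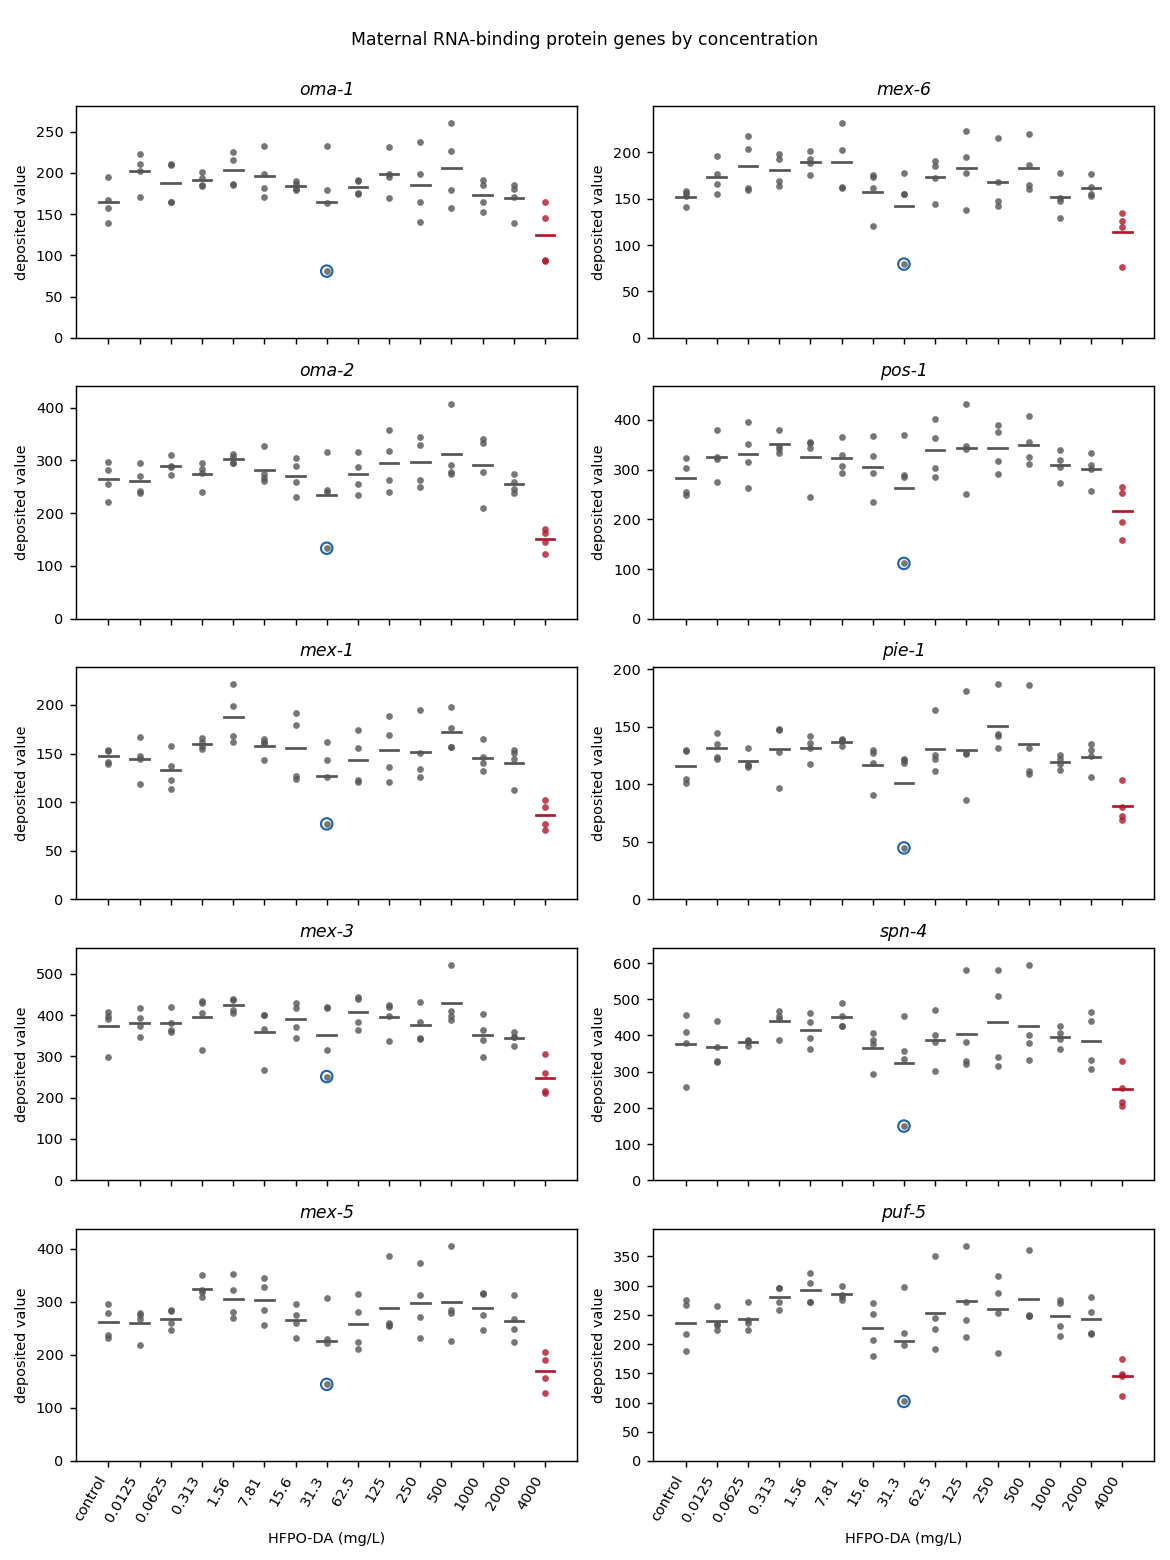
Deposited value (linear scale) of each gene in every library, by HFPO-DA concentration from the control to 4000 mg/L (categories in order, not to scale); points are libraries, bars are means of 4, red marks 4000 mg/L and the blue ring replicate 4 at 31.3 mg/L. In every panel the 4000 mg/L mean is below the mean at each lower concentration and in the control.

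Of the oocyte maturation pair, oma-2 changed by more than any other member. Its values were 171, 146, 163 and 123 at 4000 mg/L, against 221, 298, 282 and 255 in the controls. The highest exposed library lay well under the lowest control. The log2 fold change was -0.81 ± 0.16 (SE, n = 4 each, limma adjusted p = 0.000165). Values of oma-1 were 146, 93.4, 165 and 95.1 at 4000 mg/L, against 158, 196, 168 and 140 in the controls. Replicates 2 and 4 were low and replicates 1 and 3 were within the control range, so the groups overlapped. Its log2 fold change of -0.44 ± 0.18 (SE, n = 4 each) missed the threshold (limma adjusted p = 0.0641). It passed without the library that stood apart (limma adjusted p = 0.0258), without 4000 mg/L replicate 1 (0.0402) or without 4000 mg/L replicate 3 (0.0166). It weakened to -0.31 without 4000 mg/L replicate 2 (limma adjusted p = 0.235) and to -0.32 without 4000 mg/L replicate 4 (0.261). Without control replicate 2 it was -0.35 (limma adjusted p = 0.202).

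In the polarity pair both genes fell. The values of mex-5 were 206, 157, 189 and 129 at 4000 mg/L, against 232, 280, 297 and 238 in the controls, with no overlap. Its log2 fold change was -0.63 ± 0.17 (SE, n = 4 each, limma adjusted p = 0.00434). The values of mex-6 were 126, 119.1, 134 and 76.3 at 4000 mg/L, against 158, 153, 141 and 156 in the controls. These groups did not overlap either, although replicate 4 was much lower than the other exposed libraries. Its log2 fold change of -0.44 ± 0.17 (SE, n = 4 each) passed narrowly (limma adjusted p = 0.0431). It did not pass without 4000 mg/L replicate 4, where it was -0.26 (limma adjusted p = 0.303), nor without 4000 mg/L replicate 2 or any single control replicate (limma adjusted p from 0.0525 to 0.0897).

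Among the genes for blastomere fate, mex-1 had the largest difference. It had values of 77.9, 94.7, 102 and 71.9 at 4000 mg/L, against 140, 154, 153 and 141 in the controls. The controls differed little among themselves, and every exposed library was under all of them. The log2 fold change was -0.77 ± 0.16 (SE, n = 4 each, limma adjusted p = 0.000484). Values of pie-1 were 80.2, 69.3, 103.99 and 72.1 at 4000 mg/L, against 105, 130, 129 and 101 in the controls. Here exposed replicate 3 reached into the control range. The log2 fold change was -0.52 ± 0.19 (SE, n = 4 each, limma adjusted p = 0.0395). That call was lost without 4000 mg/L replicate 1, 2 or 4 or control replicate 2 or 3 (limma adjusted p from 0.0611 to 0.125). Values of pos-1 were 253, 158, 264 and 194 at 4000 mg/L, against 250, 323, 256 and 303 in the controls. Exposed replicates 1 and 3 lay among the controls, and the log2 fold change of -0.40 ± 0.19 (SE, n = 4 each) did not pass (limma adjusted p = 0.114, and 0.0395 without the library that stood apart). It was -0.26 without 4000 mg/L replicate 2 (limma adjusted p = 0.372) and -0.50 without 4000 mg/L replicate 3 (0.0577).

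The 3 members outside the CCCH type also fell. The KH domain gene mex-3 had values of 306, 217, 260 and 210 at 4000 mg/L, against 298, 408, 397 and 391 in the controls. Only exposed replicate 1 and control replicate 1, the lowest control, overlapped. The log2 fold change was -0.59 ± 0.13 (SE, n = 4 each, limma adjusted p = 0.00104). The values of spn-4 were 328, 206, 254 and 216 at 4000 mg/L, against 408, 379, 458 and 257 in the controls. Control replicate 4 fell among the exposed libraries. The log2 fold change was -0.57 ± 0.21 (SE, n = 4 each, limma adjusted p = 0.0343). It was lost without 4000 mg/L replicate 2 or 4 or control replicate 1, 2 or 3 (limma adjusted p from 0.0694 to 0.121). For puf-5 the values were 175, 146, 148 and 111 at 4000 mg/L, against 217, 275, 267 and 188 in the controls, with no overlap. Its log2 fold change was -0.70 ± 0.19 (SE, n = 4 each, limma adjusted p = 0.00481).

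In 5 members, oma-2, mex-1, mex-5, mex-6 and puf-5, all 4 libraries at 4000 mg/L were under all 4 controls, where 9.68% of all genes showed this. The calls differed in how well they held. The genes oma-2, mex-1, mex-3, mex-5 and puf-5 stayed called in all 22 alternative settings. The other calls were kept in 14 of 22 settings for spn-4, 13 for pie-1 and 10 for mex-6, and oma-1 was called in 6 and pos-1 in 3. No member changed sign in any of them. The count of 8 was 5 without 4000 mg/L replicate 2, without 4000 mg/L replicate 4, without control replicate 2 or without control replicate 3. It rose to 10 without the library that stood apart, where 14.7% of all genes were called lower. That library is in neither group compared, so the fold changes stayed the same, and only the estimate of the spread and the adjustment changed.

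**Figure D2:**
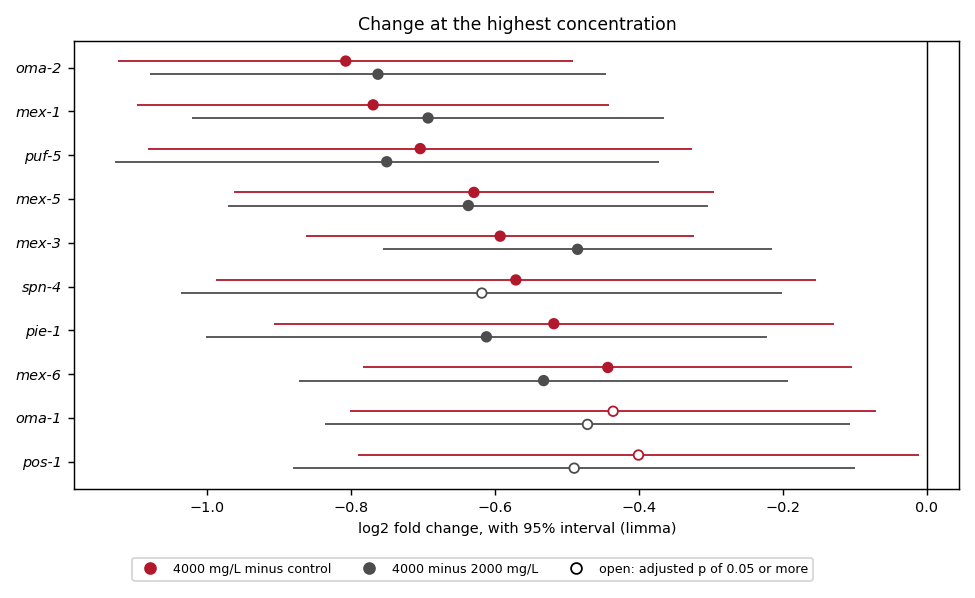
Log2 fold change with its 95% interval for each gene (rows, ordered by size) at 4000 mg/L against the control (red) and against 2000 mg/L (grey); filled points have a limma adjusted p under 0.05. All points lie below 0, from -0.81 for oma-2 to -0.40 for pos-1 against the control.

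The same genes were also lower at 4000 mg/L than at 2000 mg/L. Of the 10, 7 passed the test in this step, where 4.06% of all genes were called lower, and the median log2 fold change was -0.61. The control means take no part in this comparison, but its SE comes from the same fit of all 60 libraries. It also uses the same 4000 mg/L libraries, so it is not independent of the comparison with the controls. At 2000 mg/L the values of oma-2 were 246, 239, 274 and 258, all above its highest value at 4000 mg/L (171). The log2 fold change of this step was -0.76 ± 0.16 for oma-2 (SE, limma adjusted p = 0.00123). For puf-5 the values at 2000 mg/L were 220, 217, 255 and 280, and the step was -0.75 ± 0.19 (SE, limma adjusted p = 0.0085). For mex-1 they were 150, 113, 154 and 145, and the step was -0.69 ± 0.16 (SE, limma adjusted p = 0.00476). These 3 genes had the steepest steps, and in each the 2 groups were apart.

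Smaller steps passed for mex-5 at -0.64 ± 0.17 (SE, limma adjusted p = 0.0114), pie-1 at -0.61 ± 0.19 (SE, limma adjusted p = 0.0392), mex-6 at -0.53 ± 0.17 (SE, limma adjusted p = 0.0394) and mex-3 at -0.48 ± 0.13 (SE, limma adjusted p = 0.0175). Values of spn-4 at 2000 mg/L were 308, 331, 464 and 439, a step of -0.62 ± 0.21 that just missed (SE, limma adjusted p = 0.0507). The step was -0.47 ± 0.18 for oma-1 (SE, limma adjusted p = 0.0894) and -0.49 ± 0.19 for pos-1 (SE, limma adjusted p = 0.0979). In 7 members the 4 libraries at 4000 mg/L were all under the 4 at 2000 mg/L, against 5.35% of all genes. The count of 7 called was 4 without 4000 mg/L replicate 2 or without 2000 mg/L replicate 3, and 2 without 4000 mg/L replicate 4. It was 10 without the library that stood apart, which is in neither of the groups compared. The share of all genes called lower in these fits is not reported here, so how far the counts moved with it was not tested.

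Below 4000 mg/L none of the 10 genes was called at any of the 13 concentrations. Over all genes 0% were called at each concentration up to 125 mg/L, 0.00972% at 250 mg/L, 0.0194% at 500 mg/L, 0.165% at 1000 mg/L and 0.486% at 2000 mg/L. These comparisons share the same 4 control libraries. In the 130 tests of members the log2 fold changes ran from -0.29 to 0.37, and the smallest limma adjusted p was 0.728. That was mex-1 at 1.56 mg/L (log2 fold change 0.34 ± 0.16, SE), the only one of the 130 with an unadjusted p under 0.05 (0.0441). The fold change was below 0 in 26 of the 130 and above 0 in the rest, and all 10 members were above 0 at 313 µg/L and at 1.56, 125, 250 and 500 mg/L. All 10 were below 0 at 31.3 mg/L, the group of the library that stood apart. None of these signs goes with a call, all of them rest on the same controls, and what lies behind them was not tested.

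The level of oma-2, for example, averaged 264 ± 33.8 in the controls and 261, 290, 274, 302, 282, 271, 234, 273, 295, 296, 313, 290, 254 and 151 in the groups from 12.5 µg/L to 4000 mg/L (n = 4 each). Up to 2000 mg/L the group means moved up and down with no call, and the 4000 mg/L mean was the lowest by a wide margin. The level of mex-1 averaged 147 ± 7.52 in the controls and between 127 and 187 in the groups from 12.5 µg/L to 2000 mg/L, and 86.7 ± 14.1 at 4000 mg/L (SD, n = 4 each). For spn-4 these values were 375 ± 85.2 in the controls, 324 to 450 in between and 251 ± 55.3 at 4000 mg/L. A slope over the rank of the concentration, from the control to 4000 mg/L, was called for 0 of the 10 genes, where 6.57% of all genes were called (limma). The smallest limma adjusted p of a slope was 0.0741, for mex-3, and 6 members had an unadjusted p under 0.05.

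Per length, the members differed several-fold in level. This measure assumes reads along whole transcripts, which was not tested. In deposited values, not divided by length, the order differed. There the control means were 375 for spn-4, 373 for mex-3 and 283 for pos-1. In reads over the library's size factor per kilobase of exon, pos-1 averaged 193 ± 48.7 at 4000 mg/L and 251 ± 29.0 in the controls, and spn-4 165 ± 44.2 at 4000 mg/L and 247 ± 64.0 in the controls (SD, n = 4 each). Per length, these 2 were the highest in both groups and did not differ from each other beyond their spread. Next came mex-3, with 121 ± 20.9 at 4000 mg/L and 182 ± 25.8 in the controls, and oma-2, with 96.1 ± 14.4 at 4000 mg/L and 169 ± 18.5 in the controls. In the controls mex-3 and oma-2 differed by less than their spread. The gene mex-5 followed, with 85.4 ± 18.1 at 4000 mg/L and 131 ± 13.1 in the controls. Lower still were puf-5, with 69.4 ± 14.3 at 4000 mg/L and 114 ± 20.8 in the controls, and pie-1, with 71.1 ± 13.9 at 4000 mg/L and 102 ± 12.6 in the controls. At the low end oma-1 had 68.5 ± 21.3 at 4000 mg/L and 90.7 ± 13.4 in the controls, and mex-6 had 59.5 ± 15.5 at 4000 mg/L and 79.1 ± 6.74 in the controls. The lowest was mex-1, with 45.0 ± 6.76 at 4000 mg/L and 77.3 ± 2.46 in the controls. Neighbours in the control order, which ran mex-1, mex-6, oma-1, pie-1, puf-5 and mex-5, differed by less than the larger of their SDs, and the gap from mex-5 to oma-2 was larger than either SD. At 4000 mg/L the values of oma-1, puf-5 and pie-1 were close together. Together the 10 genes took 0.104 ± 0.0206% of a library's reads at 4000 mg/L and 0.150 ± 0.0074% in the controls.

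Within the 2 pairs, the ratio of the paralogues was compared directly, since a scale factor common to all genes of a library cancels in it. The deposited values also carry a factor of the gene and replicate number, which does not cancel. The log2 ratio of oma-1 over oma-2 was -0.30 ± 0.28 at 4000 mg/L and -0.68 ± 0.17 in the controls (SD, n = 4 each), a difference of 0.37. An exact two-sided permutation test over the 70 assignments of 8 libraries gave p = 0.0857, adjusted over the 2 pairs 0.171. The smallest p it allows is 0.0286. The log2 ratio of mex-5 over mex-6 was 0.59 ± 0.17 at 4000 mg/L and 0.78 ± 0.24 in the controls (SD, n = 4 each), a difference of -0.19 with an exact permutation p of 0.257. On reads over size factors, which lack the factor of gene and replicate number, the exact permutation p was 0.114 for oma-1 over oma-2. For mex-5 over mex-6 it was 0.286. Unequal change within a pair was therefore not detected with 4 libraries a group. Over the other concentrations the mean ratio of oma-1 over oma-2 lay between -0.72 and -0.37, and that of mex-5 over mex-6 between 0.55 and 0.93.

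The 10 genes varied together from library to library. To show this, each gene's log2(value + 1) was centred on its mean over 60 libraries, and the 10 were averaged. This mean was -0.43, -0.77, -0.43 and -0.92 in the 4000 mg/L libraries and -0.16, 0.09, 0.04 and -0.18 in the controls, and in each 4000 mg/L library all 10 genes were below their own means. In the 2000 mg/L libraries it was -0.07, -0.16, 0.11 and -0.01, within the range of the controls or just above it. Replicate 4 stood high at 62.5, 125, 250 and 500 mg/L (0.27, 0.47, 0.43 and 0.54). These 4 libraries have consecutive sample numbers (49 to 52), and the next one (53) is replicate 4 at 31.3 mg/L. Nothing in the labels says what libraries with neighbouring numbers share.

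**Figure D3:**
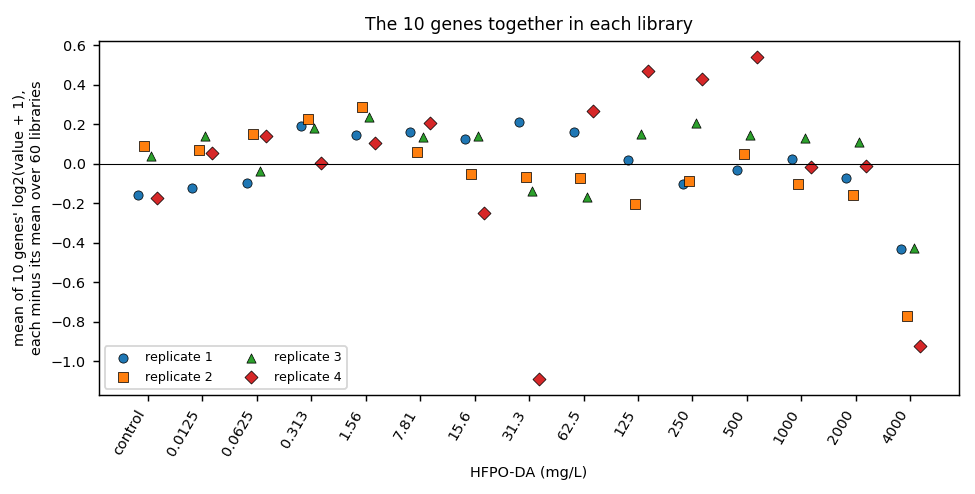
Mean over the 10 genes of log2(value + 1), each gene centred on its mean over 60 libraries, for each library by concentration (categories in order); marker shapes are replicate numbers. The 4 libraries at 4000 mg/L lie between -0.92 and -0.43, and replicate 4 at 31.3 mg/L at -1.09 is the lowest of the 60.

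In that library, with 991697 reads, the mean was -1.09, lower than in any 4000 mg/L library. Its level of oma-1 was 81.0, against 164 to 233 in the other 3 libraries at 31.3 mg/L, and that of pos-1 was 111, against 285 to 370. Its level of pie-1 was 44.7, against 118 to 122. For 5 members (oma-1, pos-1, pie-1, spn-4 and puf-5) it was the lowest of all 60 libraries, and for the other 5 it ranked 2 or 3 from the lowest. Summed levels of several other lists were also low there. The 10 muscle genes summed to 3518, against 6394 to 7053 in the other libraries at 31.3 mg/L, and the 9 intestine genes to 3914, against 5875 to 6206. The vitellogenins summed to 13169, against 31576 to 39300. Not all lists were low there. The 7 gonad sheath and spermatheca genes summed to 431, above the 316 to 413 of the other libraries at 31.3 mg/L, and elt-7 was at 13.2, above their 5.31 to 12.8. The sperm genes summed to 6026, within the 5972 to 11610 of those libraries, but this ranked 4 from the lowest of all 60 libraries. The part of any of this in the members' level was not tested.

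Comparison between libraries with neighbouring sample numbers was possible in 3 sets of 12 consecutive numbers that each hold 1 library at 4000 mg/L and 1 control. On reads over size factors, all 10 genes were lower at 4000 mg/L in each of the 3 sets. These sets hold neither 4000 mg/L replicate 1 nor control replicate 4. The members' centred mean was -0.43 in that exposed library and -0.18, the lowest of the controls, in that control. The median log2 differences over the members were -0.65, -0.57 and -1.02. The smallest differences were -0.48, -0.23 and -0.46. With 1 library on either side within a set there is no test.

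Across libraries the members were correlated, as a description of data that share library, depth and scaling. Over 60 libraries the 45 pairs had a median Pearson r of 0.80, from 0.67 (mex-3 with spn-4) to 0.90 (oma-2 with puf-5). Without the 4000 mg/L group (56 libraries) the median was 0.73. Without the library that stood apart as well (55 libraries) it was 0.59, from 0.37 for mex-3 with spn-4 to 0.79 for spn-4 with puf-5. The 2 lowest values in that set were both of mex-3, which had 0.41 with mex-5, and the highest after spn-4 with puf-5 were oma-2 with puf-5 and mex-5 with spn-4, at 0.77 each.

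**Figure D4:**
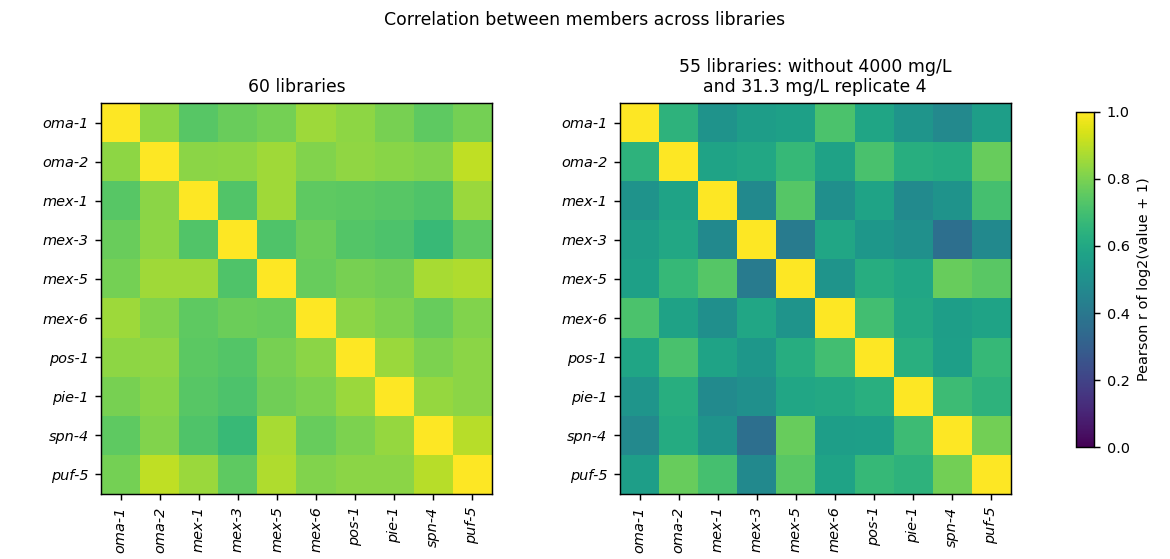
Pearson r of log2(value + 1) between each pair of the 10 genes (rows and columns) over all 60 libraries (left) and over 55 libraries without 4000 mg/L and replicate 4 at 31.3 mg/L (right); the colour scale runs from 0 to 1. The median r over 45 pairs is 0.80 on the left and 0.59 on the right.

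The genes most like the members were named by Pearson r with the members' mean. Over 60 libraries these were cyb-3, a B-type cyclin (r = 0.95), car-1, a component of germ line RNA granules (0.93), the histone variant gene htz-1 (0.93), clec-87 (0.92), the yolk protein genes vit-5 (0.92) and vit-4 (0.92), the eggshell gene cbd-1 (0.91) and the eggshell proteoglycan gene cpg-2 (0.91). Over the 40 libraries from the control to 125 mg/L, which leave out the exposed group with the change, they were cbd-1 (0.94), cyb-3 (0.93), the P granule gene deps-1 (0.92), car-1 (0.91), xnd-1 (0.91), htz-1 (0.90), gfat-1 (0.90) and the importin gene imb-3 (0.90). The genes cbd-1, cyb-3, car-1 and htz-1 were in both lists. Both sets of libraries include the library that stood apart, which had the lowest members' mean of the 60 (-1.09). Its part in these r values was not tested. At 4000 mg/L cyb-3 fell to 271 ± 52.5, against 396 ± 36.5 in the controls (SD, n = 4 each), a log2 change of -0.56 ± 0.17 (SE, limma adjusted p = 0.0106). The change of cbd-1 was -0.32 ± 0.19 and did not pass (SE, limma adjusted p = 0.184).

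Other genes of maternal mRNA control moved the same way as the members in part. Of 30 measured regulators of germ line RNA, such as Pumilio, Nanos and poly(A) polymerase factors, 10 fell and 1 rose at 4000 mg/L, with a median log2 fold change of -0.33 (all genes: 13.7% called lower, 14.7% called higher). The Nanos gene nos-2 fell to 52.4 ± 8.75, against 89.9 ± 13.3 in the controls (SD, n = 4 each), a log2 change of -0.77 ± 0.17 (SE, limma adjusted p = 0.000973). The changes of car-1 and of the Pumilio-family gene puf-11 were -0.59 ± 0.13 and -0.58 ± 0.15 (SE, limma adjusted p = 0.000864 and 0.00445). Of 34 genes on this list, gld-1, fbf-2, moe-3 and ccch-2 were not analysed here.

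Of 30 genes for egg activation, polarity kinases and the turnover of maternal proteins, 12 fell and 0 rose, with a median of -0.35. Over all genes 13.7% were called lower and 14.7% higher. The 12 that fell included the ubiquitin ligase subunit gene elb-1 at -0.65 ± 0.12 (SE, limma adjusted p = 4.59e-05). The cyclin B genes cyb-2.2 at -0.51 ± 0.12 and cyb-2.1 at -0.53 ± 0.13 were also among them (SE, limma adjusted p = 0.000959 and 0.00207). Of 14 genes whose messages are targets of the members, or are linked with them in the early germ line, 9 fell and 0 rose, with a median of -0.55. Some of the 14 stand on the other lists too. The P granule gene meg-1 fell to 23.9 ± 11.8, against 47.8 ± 9.59 in the controls (SD, n = 4 each, log2 fold change -1.08 ± 0.24 SE, limma adjusted p = 0.001). The katanin subunit gene mei-2 fell by 0.53 on the log2 scale (SE 0.13, limma adjusted p = 0.00245). These counts describe lists chosen by name, with earlier results of these data known. The share of all genes called lower is given beside them, but it is not an unbiased background.

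**Figure D5:**
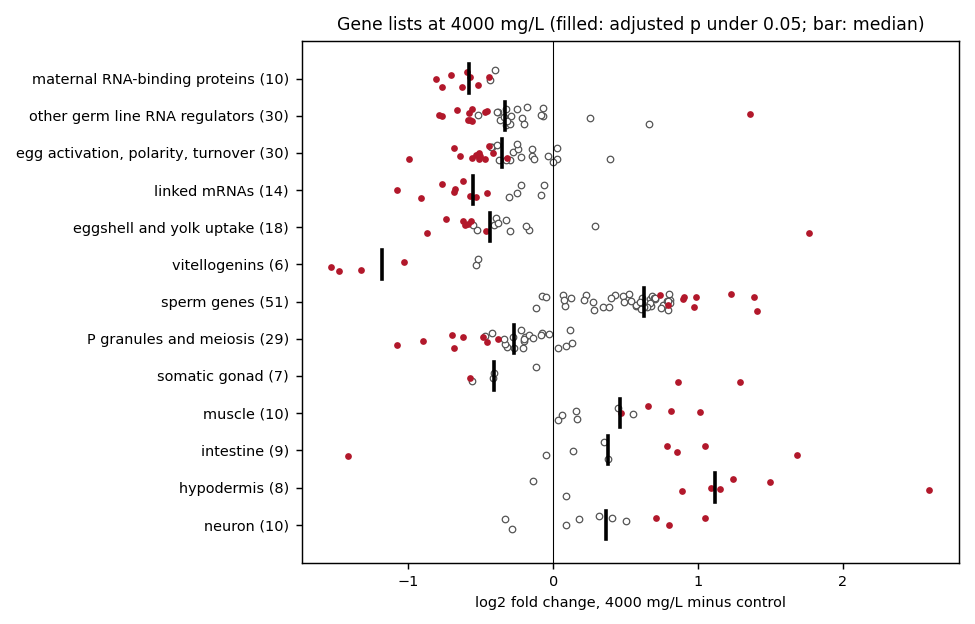
Log2 fold change at 4000 mg/L against the control for each gene of 13 lists (rows; number of genes in brackets); filled points have a limma adjusted p under 0.05 and black bars are medians. The 10 maternal RNA-binding protein genes have a median of -0.58, the vitellogenins -1.18, the sperm genes 0.63 and the hypodermis genes 1.12.

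Part of the markers of other germ line and body cells also passed the test at 4000 mg/L, where 13.7% of all genes were called lower and 14.7% higher. Of 18 eggshell and yolk uptake genes 7 fell and 1 rose (median -0.44), with the eggshell gene cpg-3 at 327 ± 89.5 at 4000 mg/L and 597 ± 155 in the controls (SD, n = 4 each, log2 fold change -0.87 ± 0.16 SE, limma adjusted p = 0.000112). The 1 that rose was pqn-74, at 41.5 ± 37.3 at 4000 mg/L and 8.96 ± 4.00 in the controls (SD, n = 4 each, log2 fold change 1.76 ± 0.38 SE, limma adjusted p = 0.000574). The summed level of this list was 5608 to 8021 at 4000 mg/L, below the 8233 to 10888 of the controls. Of 6 vitellogenins, yolk protein genes of the intestine, 4 fell (median -1.18), and their sum was 13675 to 25299 at 4000 mg/L, just below the 25329 to 42359 of the controls. Of 29 genes of P granules and meiosis 8 fell and 0 rose (median -0.27), and their sum was 3377 to 4219 at 4000 mg/L and 4248 to 4620 in the controls. The members' own sum was 1299 to 1868 at 4000 mg/L, 2188 to 2637 at 2000 mg/L and 2169 to 2594 in the controls.

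Of 51 sperm genes measured, 9 rose and 0 fell (median 0.63), a share near the 14.7% of all genes called higher, with a sum of 13720 to 24378 at 4000 mg/L that overlapped the 7291 to 18635 of the controls. Muscle (4 of 10 rose, 0 fell), hypodermis (6 of 8 rose, 0 fell), neuron (3 of 10 rose, 0 fell) and intestine genes (4 of 9 rose, 1 fell) had medians of 0.46, 1.12, 0.36 and 0.38. The summed levels of these 4 lists overlapped between the groups: the muscle sum was 7676 to 9592 at 4000 mg/L and 5920 to 7775 in the controls, and the hypodermis sum 6255 to 8272 at 4000 mg/L and 6121 to 7667 in the controls. The neuron sum was 363 to 463 at 4000 mg/L and 324 to 378 in the controls, and the intestine sum 7640 to 10696 at 4000 mg/L and 5562 to 7685 in the controls. Of 7 genes of the gonad sheath and spermatheca 2 rose and 1 fell. Of 14 genes of the early zygotic embryo 1 was measured (elt-7, 5.88 to 11.2 at 4000 mg/L and 4.71 to 9.45 in the controls), and the other 13 were not analysed here. The part of any of these in the members' change was not tested.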

How the data were processed

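Poly(A) RNA of whole worms was sequenced in 60 samples (15 groups of 4), each grouped by its title. The authors deposited 1 table of normalised signal (linear, per gene). Tools in the submitters' processing notes, listed without roles, are STAR 2.7.10a, HTSeq 2.0.1, Trimmomatic 0.39, UMI-tools 1.1.2 and edgeR 3.36.0, and the build is WBcel235. The deposited signal has a fixed form, in which the scaled read number plus 1 is multiplied by a factor of the gene and replicate number (0.445 to 3.18) and 1 is added. Solved for reads, 100% of 617880 values were whole (tolerance 0.0001). No source used here describes this factor. It may be an adjustment for replicate number, in which case the deposited spread can be smaller than that of the reads.

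Genes reaching a value of 5 in 4 libraries (10293) were tested as log2(value + 1) in 1 limma 3.58.1 fit (R 4.3.3, intensity trend, 15 group means). Tests are two-sided, and Benjamini-Hochberg adjusted over all genes of a contrast. This scale understates changes of low values. Symbols and positions came from the WBcel235 annotation, which matched 10294 identifiers. The members and lists were chosen with earlier results of these data known. Named genes are all members, up to 3 called genes of each list with the smallest adjusted p (part of them are printed), and the 8 genes most correlated with the members' mean. Alternatives changed the pseudocount, filter, scaling, replicate block, reference and left-out library. Fits on reads over size factors, voom with a replicate block, and fits without replicate 4 at 31.3 mg/L were added after seeing the data. The fit was also run on simulated reads, with the same spread setting for all genes and no library that stood apart. That run cannot show how often calls in these data are false. No pair of replicates agreed within sampling noise. Python 3.11.15 with numpy 2.4.6, pandas 2.3.3, scipy 1.17.1 and matplotlib 3.10.9 made the tables and plots.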

Additional observations from a re-analysis of the deposited data

Results flagged for a closer look

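In 8 of 165 sets of 4 libraries (the 10 genes and their mean, in 15 groups each), 1 library lay farther from the other 3 than Dixon's 95% critical value allows, where chance gives about 1 in 20. Of these, 3 were replicate 4 at 500 mg/L, high in oma-2 (407), mex-3 (521) and puf-5 (360). Replicate 4 was also high in mex-5 at 125 mg/L (387) and in pie-1 at 62.5 µg/L (132). It was low in pie-1 at 31.3 mg/L (44.7) and in pos-1 at 1.56 mg/L (246). Control replicate 1 was low in mex-3 (298). Of these 8 values 7 came from replicate 4 of their group, and no test of that share was made.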

How the results depend on the processing

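The count of 8 members called lower at 4000 mg/L was 5 with voom on the recovered reads, 5 with reads over size factors, 5 with voom and a replicate block, and 10 with the control pooled with concentrations up to 125 mg/L. Of all genes, 4.68%, 10.5%, 7.69% and 24.1% were called lower in these 4 fits. The count was 5 to 9 when libraries of the 2 groups compared were left out in turn. It was 10 without 31.3 mg/L replicate 4, where 14.7% of all genes were called lower and the members' fold changes did not move. Same-numbered libraries of 4000 mg/L and control did not deviate together (r of -0.19, -0.056, -0.055 and -0.20 on reads over size factors). The main fit used no pairing. Only these 2 groups were checked, and whether same-numbered libraries of the other groups deviate together was not tested. Adding the replicate block to voom raised the share of all genes called lower from 4.68% to 7.69%. With a replicate block in the main fit the count was 7, and the count of 7 in the step from 2000 mg/L was 6. That step's count was 2 to 9 when libraries of its 2 groups were left out in turn, 10 without 31.3 mg/L replicate 4, and 5 to 8 in the other fits. The shares of all genes called in these fits of the step are not reported here. The 0 members called over the rank became 1 with a term for sets of 12 sample numbers on reads over size factors. No member was called at the 13 lower concentrations under any alternative, and none reversed at 4000 mg/L. The other lists had 47 genes lower, 28 with voom, 80 with the pooled control, and 24 to 52 without single libraries (24 without 4000 mg/L replicate 4). They had 30 higher, 56 with the set term, 52 with it on reads over size factors, 65 with the pooled control, 17 with reads over size factors, and 11 to 51 without single libraries (11 without 4000 mg/L replicate 4, 17 without control replicate 2, 51 without control replicate 1). Of all genes called at 4000 mg/L 48.2% were lower, against 29.7% with voom and 57.6% with a filter at 20. The paralogue differences stayed uncalled (0.26 to 0.49 for oma-1 over oma-2, -0.26 to -0.09 for mex-5 over mex-6). The causes were not tested. At 27 to 1437 reads a member, smaller changes may go unseen.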
